A study of Mus musculus with 22 samples.

Results

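The serpins (serine protease inhibitors) were followed here as a gene family in the mouse lung: 62 genes whose symbol begins with Serpin, of the 20938 genes in the deposited table. Expression was given as FPKM, fragments normalized by the authors to transcript length and library size. Of the 62 genes, 39 reached 0.1 FPKM in at least 3 of the 22 libraries and were tested, together with the other genes that did so, 15682 in all. The other 23 were not tested: 12 were listed at 0 in every library, among them Serpinb3a to Serpinb3d, and none of the remaining 11 exceeded 0.193 FPKM in any library. By clade, 24 genes belong to clade A (16 tested), 28 to clade B (14 tested), 2 to clade E (2 tested), 2 to clade F (2 tested) and 2 to clade I (1 tested), and clades C, D, G and H hold 1 tested gene each. In the GENCODE annotation of mm10, which matched 61 of the 62, 23 lie on chromosome 12, 15 on chromosome 13 and 14 on chromosome 1.

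A typical serpin exposes a flexible stretch near its C-terminus, the reactive-centre loop, as bait. When a protease cuts the loop, the serpin folds it into its main sheet and drags the protease with it into a covalent, inactive complex, so the sequence of the loop sets which protease is caught. Secreted clade A serpins include α1-antitrypsin (Serpina1 genes in the mouse), the lung's main shield against neutrophil elastase, and the antichymotrypsin-like Serpina3 genes. Clade B serpins mostly stay inside cells and guard against granule and lysosomal proteases, while other clades restrain clotting, plasmin formation and complement, and Serpinh1 is a collagen chaperone that inhibits nothing.

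The libraries came from total lung RNA of BALB/c mice (spelled BABL/c in the genotype label) that had a sensitizing intraperitoneal injection when 49 days old, an intraperitoneal booster when 63 days old, and aerosol challenges from an age of 70 days. The aerosol held phosphate-buffered saline (PBS), methacholine (MCh, a muscarinic agonist that constricts airways) or ovalbumin (OVA, the allergen of this asthma model), given on 3 consecutive days (short protocol) or 3 times a week for 4 weeks (long protocol). Each protocol had 3 PBS, 4 MCh and 4 OVA libraries (those of long MCh and long OVA are lettered a to d, since their columns name the group but not the sample), all from mice described as sensitized, PBS groups included. The labels do not say what the sensitizing injections held for each group, the titles give 4 days for the short MCh challenge against 3 in the treatment text, the titles call the PBS and MCh mice normal and the long protocol 30 days, and the series' design text speaks of trachea where the samples are labelled lung. Libraries are labelled as biological replicates, and nothing says whether each is 1 animal, so the p-values measure the spread between libraries.

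Lung markers were abundant in every library, with summed levels of 3 club cell genes between 31600 and 55400 FPKM, while 5 tracheal cartilage genes summed to at most 0.884 FPKM and 8 liver genes to at most 5.56 FPKM. At 1 FPKM a transcript of 1 kb was covered by 15.2 to 25.6 fragments, as read from the smallest steps in the transcript table. The libraries MCh short 1, MCh long a and MCh long c stood apart, with 28.3%, 34.3% and 33.8% of genes at 0 against 22.5% to 25.3% elsewhere. Levels of different genes are compared per length only, and the gene values of 12 members with a sole listed transcript were 0.574 to 1.74 times the transcript values, so the order of levels between genes is approximate.

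After the short OVA protocol the summed serpin signal of the lung was larger and differently made up. The summed level of the 62 genes was 1100 ± 133 FPKM (SD, n = 3) in short PBS lungs, between 992 and 1250, and 2110 ± 166 FPKM (n = 4) in short OVA lungs, between 1910 and 2320. Serpina3 genes held 7.03% ± 2.03 of that sum in short PBS lungs and 43.8% ± 4.21 in short OVA lungs. In the long protocol the sum was 884 ± 84.7 FPKM with PBS and 1130 ± 35.1 FPKM with OVA, and the Serpina3 share was 9.43% ± 1.73 and 19.6% ± 3.39. With MCh the sums were 972 ± 135 (short) and 945 ± 114 FPKM (long) and the Serpina3 shares 9.86% ± 2.46 and 8.48% ± 1.92. In PBS lungs the most abundant member was Serpinh1, at 34.8% ± 5.95 of the sum in the short protocol and 21.9% ± 5.19 in the long one.

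**Figure D1:**
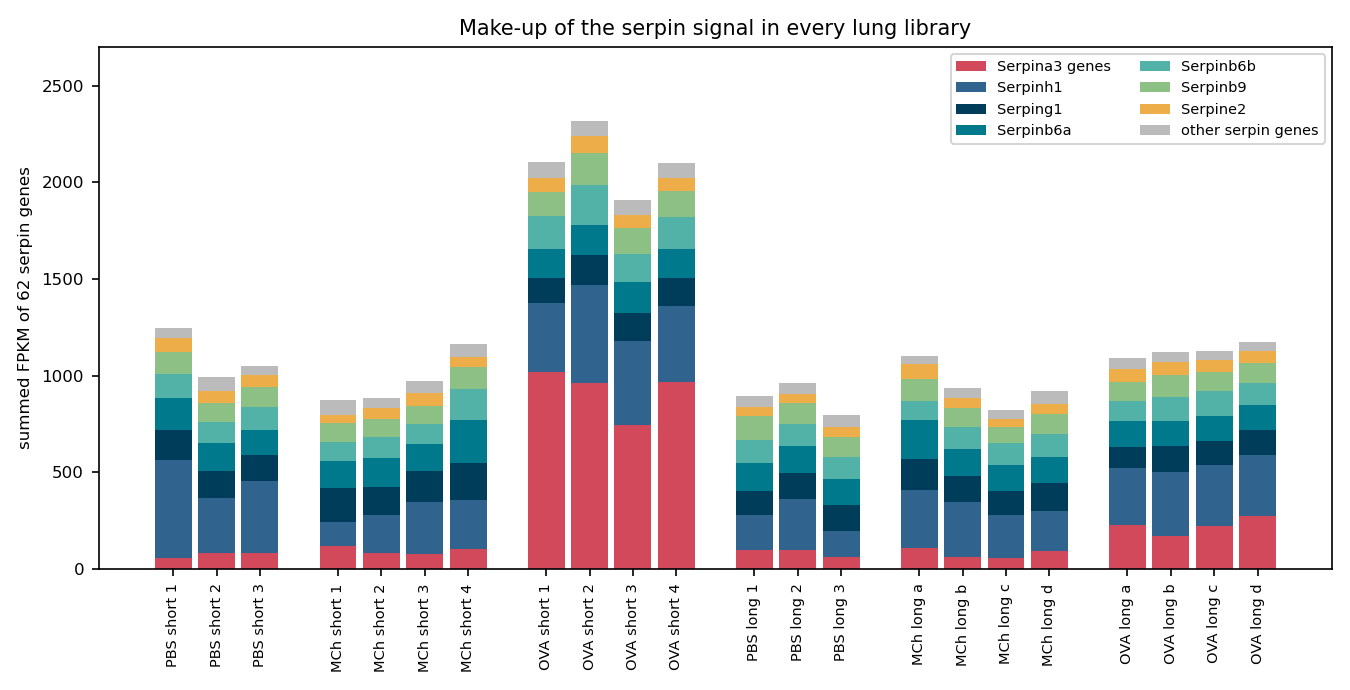
Summed FPKM of the 62 serpin genes (vertical axis) in each of the 22 libraries (horizontal axis), split by gene or gene group in stacked bars. The 4 short OVA libraries reach 1910 to 2320 FPKM, with the Serpina3 block between 747 and 1020 FPKM, against 58.5 to 84.9 FPKM in short PBS libraries.

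Of the 39 tested serpins, 13 were higher and 0 were lower in short OVA than in short PBS lungs (limma on log2 of FPKM + 0.5, Benjamini-Hochberg adjusted p under 0.05 over all 15682 genes). That is 33.3% of the members, where 24.2% of all tested genes were called, 12.4% as higher and 11.7% as lower. The median log2 difference was 0.15 over the 39 members and -0.06 over all tested genes. The genes called higher were 6 of the 7 tested Serpina3 genes, Serpina10, Serpina11, Serpinb1a, Serpinb2, Serpinb6b, Serpinb9 and Serpind1. By chromosome, 8 of 15 tested members on chromosome 12, 3 of 8 on chromosome 13 and 1 of 8 on chromosome 1 were called higher.

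**Figure D2:**
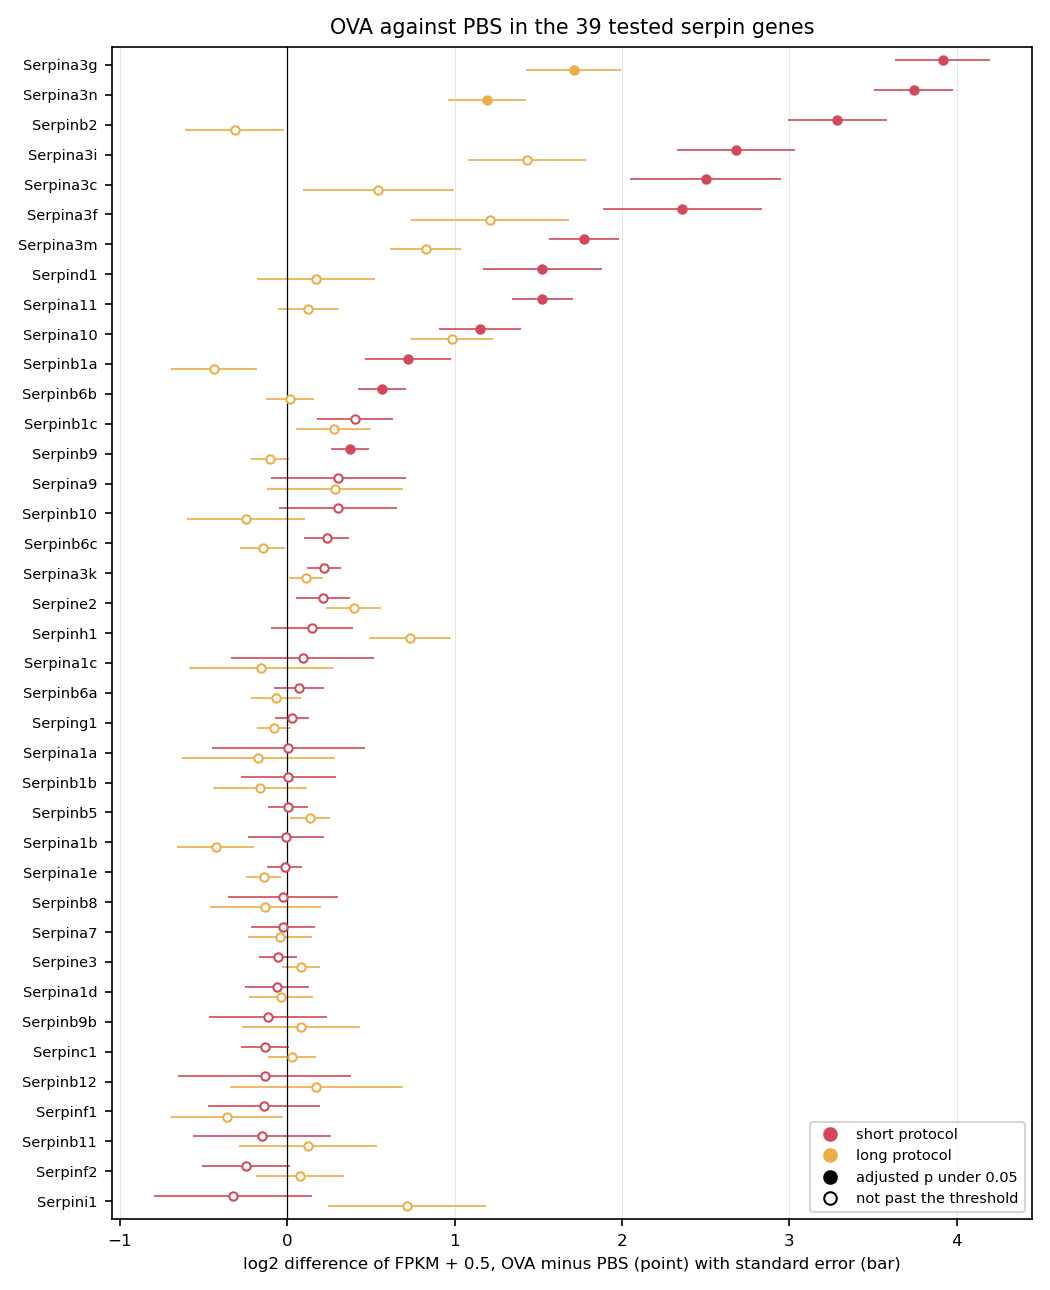
Log2 difference of FPKM + 0.5 between OVA and PBS lungs (horizontal axis) with its standard error for each of the 39 tested serpins (vertical axis), in the short and in the long protocol. Filled points passed an adjusted p of 0.05: 13 in the short protocol, led by Serpina3g and Serpina3n, and only these 2 in the long protocol.

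The largest differences belonged to the Serpina3 genes, a tandem group on chromosome 12 between the start of Serpina3a at 104112724 and the end of Serpina3n at 104414329 (mm10). These are the mouse relatives of human antichymotrypsin, an acute-phase inhibitor of chymotrypsin-like proteases. Serpina3n, known to inhibit granzyme B and leukocyte elastase, stood at 21.9, 38.2 and 25.3 FPKM in the short PBS libraries and at 420, 391, 289 and 421 FPKM in the short OVA libraries. The means were 28.4 ± 8.62 and 380 ± 62.4 FPKM, a ratio of 13.4, and the fitted log2 difference was 3.74 ± 0.23 (SE, adjusted p = 1.37e-09). Every short OVA library lay far above every PBS and MCh library of either protocol.

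Serpina3g, an intracellular member that inhibits cathepsin-type cysteine proteases in leukocytes, was read at 22.7, 26.7 and 36.5 FPKM in short PBS lungs. In short OVA lungs it was 481, 448, 364 and 441 FPKM, 15.1 times the PBS mean (log2 difference 3.92 ± 0.28, adjusted p = 9.79e-09). The short PBS and short OVA libraries were again far apart, and the short MCh libraries lay between 15.9 and 37.3 FPKM, far under the short OVA values.

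Serpina3f went from 6.77, 8.74 and 11.9 FPKM in short PBS libraries to 48.2, 54.1, 43.9 and 45.7 FPKM in short OVA libraries (log2 difference 2.36 ± 0.47, adjusted p = 0.00122). Serpina3i was at 4.88, 6.77 and 8.81 FPKM with PBS and at 52.9, 52.9, 37.4 and 40.1 FPKM with OVA (2.68 ± 0.35, adjusted p = 2.19e-05). Serpina3c was at 1.98, 1.90 and 2.27 FPKM with PBS and at 15, 15.8, 10.3 and 15.3 FPKM with OVA (2.5 ± 0.45, adjusted p = 0.000505). In none of these 3 genes did the short PBS and OVA libraries overlap, and the third OVA library was the lowest of its group in each, as it was for Serpina3n and Serpina3g.

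Serpina3m was read at low level, 0.260, 0.238 and 0.0557 FPKM in short PBS and 1.72, 1.69, 1.89 and 1.96 FPKM in short OVA libraries (log2 difference 1.77 ± 0.21, adjusted p = 6.02e-06). Serpina3k, the other tested Serpina3 gene, was at most 0.0284 FPKM in short PBS and at most 0.170 FPKM in short OVA libraries (0.22 ± 0.10, adjusted p = 0.133). Serpina3m and Serpina3k share an annotated start at 104338486 on the plus strand, so fragments from the start of either cannot be assigned with certainty.

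**Figure D3:**
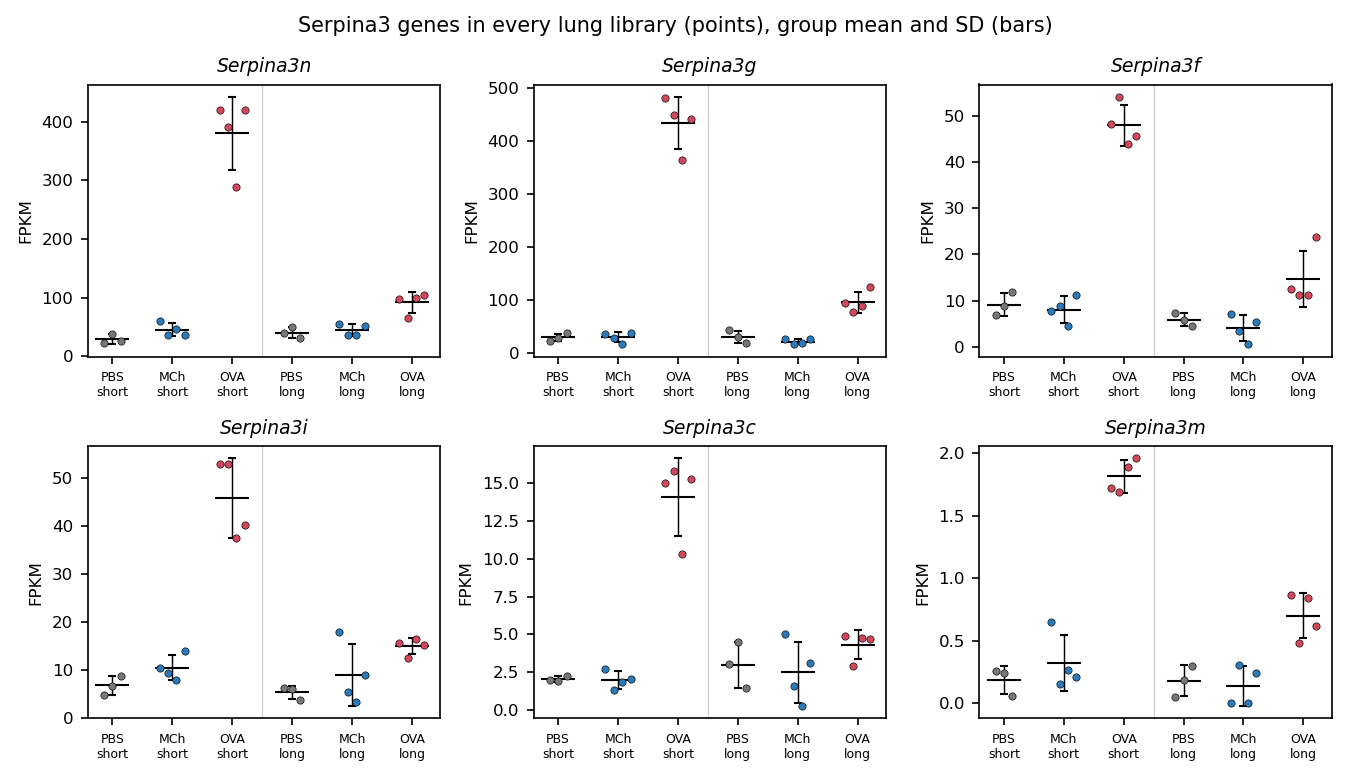
FPKM (vertical axis, linear, its own scale in each panel) of 6 Serpina3 genes in every library, grouped by aerosol and protocol (horizontal axis), with the group mean and SD. In all 6 panels the short OVA points stand above all other points, and the long OVA points of Serpina3g and Serpina3n lie above the long PBS points.

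The 6 genes that rose are close copies over the coding sequence that could be aligned and less alike in the bait. Among 7 Serpina3 genes (Serpina3k included), the longest reading frames were 80.9% to 91.8% identical over 21 pairs, which leaves room for fragments to be assigned to the wrong copy. The Serpina3g frame held 747 bases, against at least 1227 in the others, so its pairs were aligned over 644 to 747 bases only. The reactive-centre loops are shown because they are the part that meets the protease. The coding bases, from GENCODE M21 transcripts, run 5′ to 3′ from the conserved hinge to the conserved end of the loop, with the variable stretch between them in capitals.
Serpina3n: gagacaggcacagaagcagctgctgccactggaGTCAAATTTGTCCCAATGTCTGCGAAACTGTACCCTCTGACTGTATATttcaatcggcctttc
Serpina3g: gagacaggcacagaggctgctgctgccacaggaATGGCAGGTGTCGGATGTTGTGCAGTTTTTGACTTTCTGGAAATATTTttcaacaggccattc
Serpina3f: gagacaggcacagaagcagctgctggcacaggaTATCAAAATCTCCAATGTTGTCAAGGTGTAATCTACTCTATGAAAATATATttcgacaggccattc
Serpina3i: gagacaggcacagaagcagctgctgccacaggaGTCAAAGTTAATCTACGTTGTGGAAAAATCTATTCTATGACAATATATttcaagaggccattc
Serpina3c: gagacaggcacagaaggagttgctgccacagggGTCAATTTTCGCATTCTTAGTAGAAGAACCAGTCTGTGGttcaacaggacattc
Serpina3m: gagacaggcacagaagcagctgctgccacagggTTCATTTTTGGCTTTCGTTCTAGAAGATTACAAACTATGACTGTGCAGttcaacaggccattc
For the 4 genes whose variable stretch has the same length, 48 bases (Serpina3g, Serpina3i, Serpina3m and Serpina3n), it was 33.3% to 62.5% identical without gaps over 6 pairs, while their reading frames were 81.9% to 86.3% identical. The stretch was marked because it varies, so a low identity there is part of its choice, and no other stretch was compared.

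Upstream of their starts, 5 of the 6 (Serpina3m has no entry in the RefSeq promoter table, GRCm38.p6) also share a block. The longest run common to the 250 bases before the start of all 5 was AGAAATCA. The windows below show it with the 5 bases before it in capitals, on the strand of the gene.
Serpina3n, chr12:104406540-104406617 plus strand: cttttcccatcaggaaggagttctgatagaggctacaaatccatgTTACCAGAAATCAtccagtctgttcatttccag
Serpina3g, chr12:104236069-104236146 plus strand: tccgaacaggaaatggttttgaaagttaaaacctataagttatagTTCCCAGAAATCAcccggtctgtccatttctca
Serpina3f, chr12:104214378-104214455 plus strand: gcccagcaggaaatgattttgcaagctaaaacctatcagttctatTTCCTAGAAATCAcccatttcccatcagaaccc
Serpina3i, chr12:104262975-104263052 plus strand: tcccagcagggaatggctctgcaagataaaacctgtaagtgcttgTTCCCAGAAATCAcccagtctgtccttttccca
Serpina3c, chr12:104153960-104154037 minus strand: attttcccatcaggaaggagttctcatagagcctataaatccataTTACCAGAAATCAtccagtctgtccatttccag
Counting from 1 at the first capital, Serpina3n and Serpina3c carry C3A and Serpina3f carries C5T relative to Serpina3g and Serpina3i. The STAT-type pattern TTCNNNGAA, which overlaps the shared run, is present in the capitals of Serpina3g, Serpina3i and Serpina3f and absent from those of Serpina3n and Serpina3c. On both strands of 32851 RefSeq promoter windows of 250 bases, AGAAATCA was found in 1.32%, TTCNNNGAA in 7.02%, TTC and GAA with 4 bases between them in 5.85%, and an NF-κB-type pattern (GGG, any 2 bases, TTTCC) in 1.41%. Among 63 windows of 54 serpins the shares were 9.52%, 15.9%, 7.94% and 4.76%. The first of these was set by the choice of the run, since the serpin windows that hold it are those of the 5 genes it was read from. The second overlaps that run in 3 of the genes, and the NF-κB-type pattern was matched by Serpina3g, Serpina3i and Serpina3n alone. These are matches of letters, and whether any factor binds there was not measured.

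Outside the Serpina3 group, 2 further clade A genes rose. Serpina10, the protein Z-dependent inhibitor of coagulation factor X, was at 0.441, 0.865 and 0.460 FPKM in short PBS and at 1.79, 2.88, 1.61 and 1.47 FPKM in short OVA libraries (log2 difference 1.15 ± 0.25, adjusted p = 0.00212). Serpina11, a little-studied member, was listed at 0 in all 3 short PBS libraries and at 1.57, 0.593, 0.586 and 1.24 FPKM in the short OVA libraries, about 50.0, 18.8, 19.4 and 38.1 fragments. It passed the test (adjusted p = 5.99e-06), but no fold is given against a group at 0, and the fitted log2 difference moved between 0.97 and 3.34 with the pseudocount.

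The α1-antitrypsin genes were not called. Serpina1b, the most abundant of them, was at 10.7, 16.9 and 8.79 FPKM in short PBS and at 11.8, 10.5, 14.5 and 10.2 FPKM in short OVA libraries (log2 difference -0.01 ± 0.23, adjusted p = 0.989). Serpina1a, Serpina1c, Serpina1d and Serpina1e had differences from -0.06 to 0.09, and their adjusted p-values were 0.855 to 0.995. The coding sequences of Serpina1a to Serpina1e are each 96.5% to 98.5% identical to their closest copy, so the split between them is uncertain: in the library MCh long c Serpina1b was read at 10.3 FPKM and Serpina1a at 0.0628 FPKM. The liver markers summed to at most 1.28 FPKM in short PBS and 1.11 FPKM in short OVA libraries, and to at most 5.56 FPKM in any library.

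Among the intracellular clade B genes the outstanding member was Serpinb2, plasminogen activator inhibitor type 2 of macrophages and epithelia. It was at 0.238, 0.0836 and 0 FPKM in the short PBS libraries (9.85, 2.99 and 0 fragments) and at 5.49, 8.11, 2.48 and 7.13 FPKM in the short OVA libraries (190, 279, 88.9 and 239 fragments). The log2 difference was 3.29 ± 0.30 (adjusted p = 2.06e-07), and no other group held a library above 0.746 FPKM. Serpinb10, which the annotation places on the same strand from 107529003 to 107549271 and so overlapping the end of Serpinb2 (107511423 to 107535478), was at 0.662 ± 0.436 FPKM with PBS and 0.910 ± 0.360 FPKM with OVA (0.31 ± 0.35, adjusted p = 0.578).

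Abundant clade B inhibitors of granule proteases shifted by far less. Serpinb6b was at 125, 105 and 116 FPKM in short PBS and at 174, 208, 142 and 165 FPKM in short OVA libraries (log2 difference 0.57 ± 0.14, adjusted p = 0.00713). Serpinb9, the granzyme B inhibitor that protects cytotoxic and antigen-presenting cells, was at 113, 101 and 103 FPKM with PBS and at 122, 166, 134 and 131 FPKM with OVA (0.38 ± 0.11, adjusted p = 0.0211). In both genes the lowest OVA library was above the highest PBS library.

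Serpinb1a, an inhibitor of neutrophil elastase, cathepsin G and proteinase 3, was at 13.5, 22.4 and 11.3 FPKM in short PBS and at 28.2, 23.2, 27.7 and 22.3 FPKM in short OVA libraries (0.72 ± 0.26, adjusted p = 0.0466). Its groups touched, since the OVA library at 22.3 FPKM lay just under the PBS library at 22.4 FPKM. Serpinb6a, the most abundant clade B gene in PBS lungs, was 147 ± 16.2 FPKM with PBS and 153 ± 6.42 FPKM with OVA (0.07 ± 0.15, adjusted p = 0.788). The call of Serpinb1a was lost in 15 of 34 alternative analyses, with an adjusted p of 0.244 without PBS short 3, and that of Serpinb9 was lost without PBS short 2 (0.0777), PBS short 3 (0.0814) or OVA short 2 (0.0775), and with the replicate number as a block (0.124).

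The serpins of clotting and plasmin formation differed in their values and calls. Serpind1, heparin cofactor II, a thrombin inhibitor, was at 1.39, 1.22 and 1.33 FPKM in short PBS and at 5.89, 5, 3.31 and 5.05 FPKM in short OVA libraries, 3.66 times the PBS mean (log2 difference 1.52 ± 0.35, adjusted p = 0.00383). Antithrombin (Serpinc1) was at most 0.190 FPKM in short PBS and 0.137 FPKM in short OVA libraries (-0.13 ± 0.14, adjusted p = 0.546). The plasmin inhibitor Serpinf2 was at most 0.259 FPKM in either group (-0.25 ± 0.26, adjusted p = 0.539).

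Serpine2, protease nexin 1, an inhibitor of thrombin and plasminogen activators, was 64.5 ± 6.79 FPKM with short PBS and 75.0 ± 8.66 FPKM with short OVA (log2 difference 0.21 ± 0.16, adjusted p = 0.371).

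The complement and structural members were abundant and not called in this comparison. Serping1, the C1 inhibitor that also restrains kallikrein, was 144 ± 9.97 FPKM in short PBS and 146 ± 9.97 FPKM in short OVA lungs (log2 difference 0.03 ± 0.10, adjusted p = 0.887). Serpinh1, the endoplasmic reticulum chaperone of procollagen, was at 507, 285 and 368 FPKM with PBS and at 355, 503, 430 and 395 FPKM with OVA (0.15 ± 0.24, adjusted p = 0.711). Its PBS libraries spread over the whole OVA range. Serpinf1 (pigment epithelium-derived factor) was 9.65 ± 0.392 and 8.73 ± 0.831 FPKM, and Serpini1 (neuroserpin, an inhibitor of tissue plasminogen activator) 2.53 ± 0.323 and 1.92 ± 0.317 FPKM, with adjusted p-values of 0.808 and 0.674. The remaining tested members (Serpina7, Serpina9, Serpinb1b, Serpinb1c, Serpinb5, Serpinb6c, Serpinb8, Serpinb9b, Serpinb11, Serpinb12 and Serpine3) had differences from -0.15 to 0.40 and no call, and the most abundant of them, Serpinb8, was 5.70 ± 0.334 and 5.61 ± 0.570 FPKM.

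**Figure D4:**
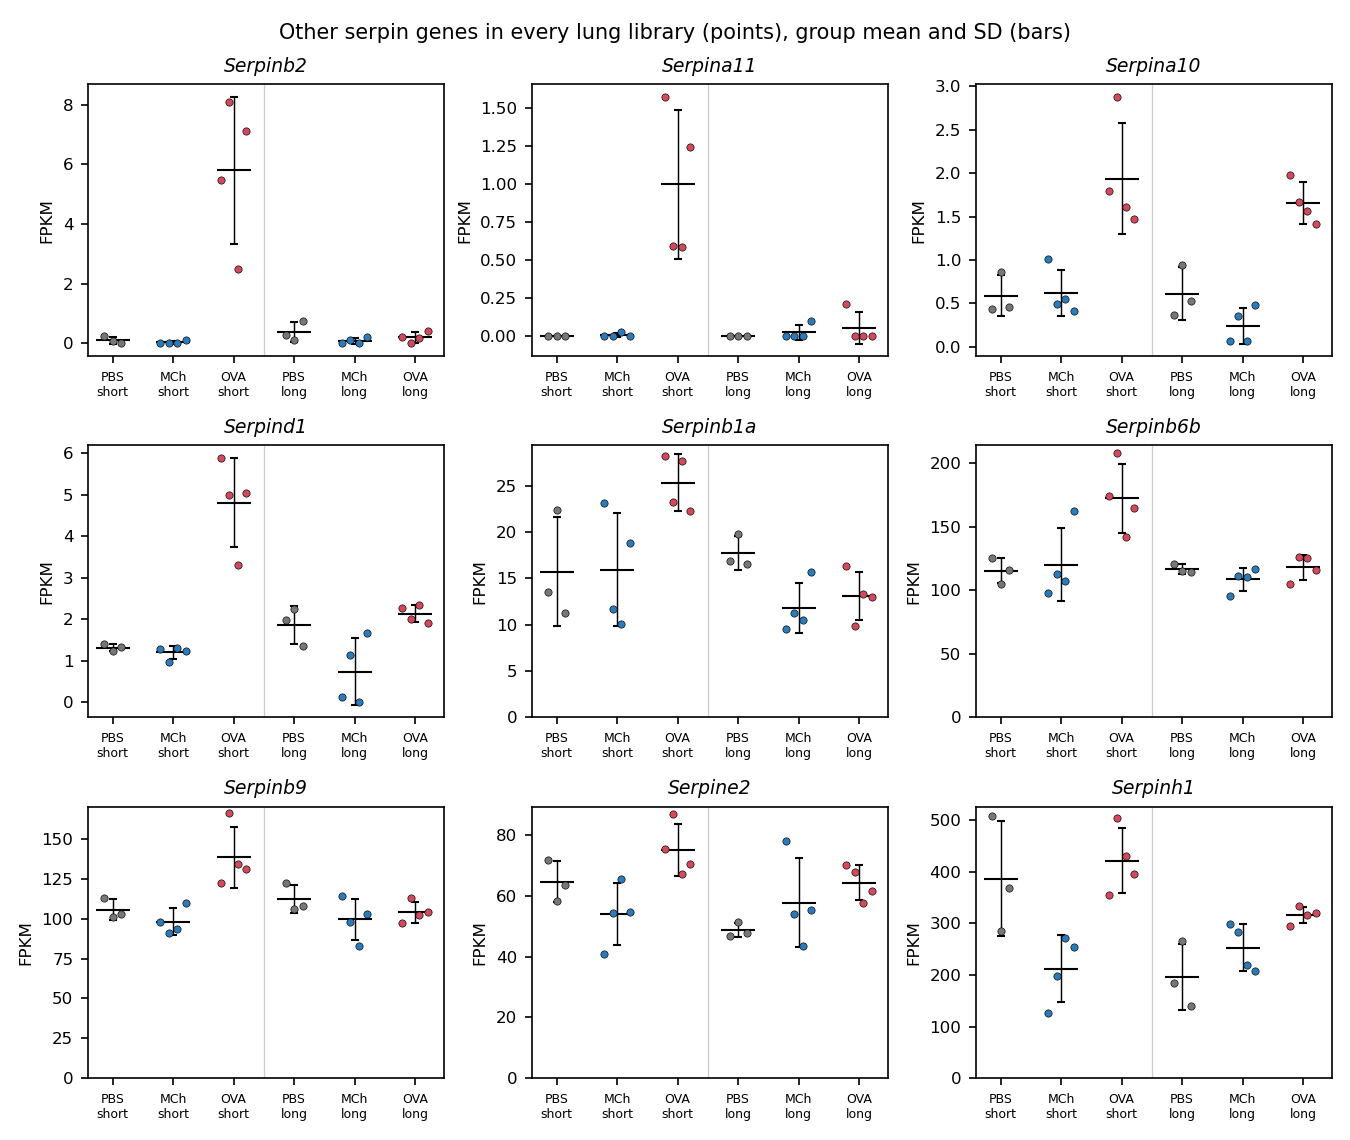
FPKM (vertical axis, linear, its own scale in each panel) of 9 serpin genes outside the Serpina3 group in every library, by aerosol and protocol (horizontal axis), with the group mean and SD. Serpinb2 and Serpina11 stand out in the short OVA group alone, and Serpina10 in both OVA groups.

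The long OVA protocol left a smaller difference from its own PBS group. Of the 39 members, 2 were called, both higher (5.13% of them, against 1.18% of all tested genes, 1.03% higher and 0.153% lower). Serpina3g was at 41.7, 28.9 and 18.7 FPKM in long PBS and at 93.2, 76.4, 88.2 and 123 FPKM in long OVA libraries (log2 difference 1.71 ± 0.28, adjusted p = 0.0024). Serpina3n was at 38.7, 50.4 and 30.8 FPKM with PBS and at 97.7, 64.9, 99.9 and 105 FPKM with OVA (1.19 ± 0.23, adjusted p = 0.0101). Neither gene's groups overlapped. The call of Serpina3n was lost without PBS long 1 (adjusted p = 0.0566) or PBS long 3 (0.112).

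Several other members of chromosome 12 missed the threshold narrowly in the long protocol. Serpina3i was 5.33 ± 1.37 FPKM with PBS and 15 ± 1.66 FPKM with OVA (log2 difference 1.43 ± 0.35, adjusted p = 0.0534). Serpina10 was 0.611 ± 0.303 and 1.66 ± 0.238 FPKM (0.98 ± 0.25, adjusted p = 0.057), and Serpina3m 0.178 ± 0.123 and 0.700 ± 0.183 FPKM (0.83 ± 0.21, adjusted p = 0.063). For each of these 3 genes the long PBS and long OVA libraries did not overlap.

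The number of calls in the long protocol, given here without the share over all tested genes, varied with the libraries in the fit. It was 7 without the 3 libraries with the most genes at 0, and 7 when the long PBS and OVA groups were fitted alone. It was 4 without MCh short 1 or MCh short 4, 5 without MCh long a, 6 without MCh long c, and 1 without PBS long 1 or PBS long 3. In the fit without the 3 sparse libraries Serpina3i had an adjusted p of 0.00204, Serpina3m 0.00373, Serpina10 0.00848, Serpina3f 0.0311 and Serpine2 0.0471. The log2 difference of each was the same as with all libraries. The SEs were 0.23, 0.15, 0.20, 0.30 and 0.10 in that order, against 0.35, 0.21, 0.25, 0.47 and 0.16 with all libraries.

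Of the members called higher after the short protocol, all but Serpina3g and Serpina3n were not called after the long one, and for Serpinb2 and Serpina11 the change of effect was itself called, as given next. Serpinb2 was at 0.284, 0.125 and 0.746 FPKM in long PBS and at 0.206, 0, 0.170 and 0.417 FPKM in long OVA libraries (log2 difference -0.31 ± 0.30, adjusted p = 1). Serpina11 was listed at 0 in 3 of 4 long OVA libraries and at 0.208 FPKM in the other. No long OVA library of Serpinb2 exceeded its highest long PBS library, whereas the Serpina11 library at 0.208 FPKM lay above all PBS and MCh libraries, the highest of which was at 0.0955 FPKM.

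The difference between the protocols was tested directly as the OVA effect in the long minus that in the short protocol. Of the 39 members 4 were called, each with a smaller effect in the long protocol (10.3% of them, against 1.88% of all tested genes, 1.42% lower and 0.459% higher). The change of effect was -3.60 ± 0.42 on the log2 scale for Serpinb2 (adjusted p = 5.55e-05), -2.55 ± 0.33 for Serpina3n (0.000184), -2.20 ± 0.40 for Serpina3g (0.00528) and -1.40 ± 0.26 for Serpina11 (0.00577). For Serpina10 it was -0.17 ± 0.35 (adjusted p = 0.88), with 3.29 times the PBS mean in the short and 2.71 times in the long protocol. Without MCh short 4 the count was 7, and without the 3 sparse libraries it was 9. The share over all tested genes in these fits is not given.

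No member was called between long and short PBS lungs, where 0.166% of all tested genes were, and 2 members had an unadjusted p under 0.05. Serpinh1 was at 184, 266 and 139 FPKM in long PBS libraries, below all 3 short PBS libraries (log2 difference -0.99 ± 0.26, adjusted p = 0.191), and it was called without the 3 sparse libraries (adjusted p = 0.0483). Age and the number of exposures differ together between these groups and cannot be told apart.

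MCh alone gave no call among the members. Against PBS, 0 of 39 were called in the short protocol (0.00638% of all tested genes) and 0 in the long protocol (0.0638%), by limma; at an unadjusted p under 0.05 there were 3 and 8. The lowest adjusted p was 0.388 in the short and 0.215 in the long protocol. Serpinh1 was 212 ± 65.4 FPKM in short MCh lungs, with libraries at 126, 198, 271 and 254 FPKM, all below the lowest short PBS library. Without MCh long d, 1 member was called in the long protocol, Serpind1 (adjusted p = 0.0239). That fit keeps the sparse libraries MCh long a and MCh long c, where Serpind1 was at 0.129 and 0 FPKM, against 1.14 FPKM in MCh long b. Over the alternative analyses its difference lay between -2.02 and -0.3.

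Against the MCh lungs of the same protocol, the short OVA lungs had 15 members called, each higher (38.5% of members, against 15.2% of all tested genes, 9.37% higher and 5.82% lower). They were the 13 members called against PBS, each in the same direction, plus Serpinh1 (1.03 ± 0.23, adjusted p = 0.00325) and Serpine2 (0.49 ± 0.15, adjusted p = 0.0339). These comparisons share the OVA libraries, so they are not independent of those with PBS. The call was lost for Serpinb1a in 16 and for Serpine2 in 8 of 34 alternative analyses. Serpinb6b lost it with the short OVA and MCh groups fitted alone (adjusted p = 0.0969) and with the replicate number as a block (0.072). Over all tested genes the calls were 1469 higher and 912 lower, and 1445 and 1462 after quantile normalization.

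In the long protocol 8 members were called between OVA and MCh, 7 higher and 1 lower (20.5% of members, against 6.06% of all tested genes, 4.75% higher and 1.31% lower). Serpina3g (2.18 ± 0.26), Serpina3f (2.01 ± 0.44), Serpini1 (1.80 ± 0.44), Serpina10 (1.58 ± 0.23), Serpind1 (1.35 ± 0.33), Serpina3n (1.03 ± 0.22) and Serpina3m (0.94 ± 0.20) were higher, with adjusted p-values from 2.78e-05 to 0.0184. Serpina1b was lower, at 6.90, 9.56, 7.40 and 5.71 FPKM in long OVA against 15.8, 12, 10.3 and 14.8 FPKM in long MCh libraries (-0.80 ± 0.21, adjusted p = 0.0299). This call was lost in 6 of 33 alternative analyses, with adjusted p-values up to 0.106 (without OVA long d), among them those without MCh long a (0.0805), OVA long a (0.0913), OVA long c (0.0625) or the 3 sparse libraries (0.104). The near-identical Serpina1a and Serpina1c had differences of 0.57 ± 0.42 and 0.57 ± 0.40 (adjusted p = 0.411 and 0.385), and the split between these copies is uncertain.

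Part of this comparison rests on the sparse MCh libraries. Serpind1 was at 0.129 FPKM in MCh long a and 0 in MCh long c, against 1.14 and 1.67 FPKM in the others, and without the sparse libraries its difference from OVA was 0.48 ± 0.19 (adjusted p = 0.241). Serpini1 was at 0.0557 and 0 FPKM in those libraries, and without them its difference was 0.84 ± 0.28 (adjusted p = 0.14). Serpina3m was at 0 FPKM in both, and without the sparse libraries its difference was 0.62 ± 0.17 (adjusted p = 0.0507). Serpina3f was at 0.496 FPKM in MCh long c, against 7.10, 3.30 and 5.32 FPKM in MCh long a, b and d. Its call was kept without the sparse libraries and lost when the long OVA and MCh groups were fitted alone (adjusted p = 0.159). Conversely, without the sparse libraries Serpinf1 was called lower (-0.66 ± 0.16, adjusted p = 0.0355) and Serpina3i higher (1.04 ± 0.26, adjusted p = 0.0404). Without OVA long a the count of called members was 5. The median of all tested genes was itself 0.14 higher in OVA than in MCh lungs, and the split of calls over all genes was 745 higher and 206 lower, but 452 and 447 after quantile normalization.

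Proteases that serpins restrain were followed in lists chosen by their roles. The counts of each list stand against the 24.2% of all tested genes called between short OVA and PBS (12.4% higher, 11.7% lower) and the 1.18% called in the long protocol. In the plasminogen activation list 2 of 8 tested genes rose with short OVA and none fell (25%, near that share; median log2 difference 0.29). Plau, the urokinase that Serpinb2 inhibits, was 3.08 ± 0.112 FPKM with PBS and 7.88 ± 1.97 FPKM with OVA (1.19 ± 0.37, adjusted p = 0.0228), and S100a10, a plasminogen receptor subunit, rose by 0.76 ± 0.21 (0.0124). Plat, tissue plasminogen activator, was 50.4 and 50.5 FPKM in the groups (-0.01 ± 0.24, adjusted p = 0.986).

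In the clotting list 5 of 19 tested genes rose and 1 fell (31.6% called, against 24.2% of all tested genes; median 0.08). F10, the zymogen that the product of Serpina10 controls once active, was 3.42 ± 0.627 FPKM with short PBS and 35.8 ± 4.40 FPKM with short OVA (3.22 ± 0.30, adjusted p = 2.95e-07). F7 (1.49 ± 0.27), Fgl2 (1.07 ± 0.18), F5 (1 ± 0.25) and F2rl2 (0.87 ± 0.21) rose as well, and the thrombin-binding Thbd fell by 0.77 ± 0.16. Prothrombin (F2) was near 0 in lung RNA, 0.113 and 0.0996 FPKM. In the long protocol F10 alone was called in this list (1.51 ± 0.30, adjusted p = 0.0105).

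Among proteases of granules, 3 of 5 granzymes rose with short OVA. Gzmb, the target of Serpinb9 and Serpina3n, was 5.57 ± 0.674 FPKM with PBS and 27.2 ± 4.40 FPKM with OVA (2.18 ± 0.27, adjusted p = 1.04e-05), and Gzmk (1.52 ± 0.34) and Gzma (1.06 ± 0.37) rose less. Of 7 tested mast cell proteases 3 rose, Mcpt2 (3.47 ± 0.65), Mcpt1 (3.25 ± 0.71) and Mcpt8 (1.74 ± 0.24, a basophil protease). Mcpt1 and Mcpt2 were also called in the long protocol (3.83 ± 0.71 and 4.00 ± 0.65). Their change of effect between protocols was not called (0.59 ± 1.01 and 0.54 ± 0.91, adjusted p = 0.846 and 0.844 by limma). Of the neutrophil proteases that Serpina1 and Serpinb1a inhibit, Elane was 0.0282 and 0.0134 FPKM and Prtn3 0.0450 and 0.0730 FPKM with short PBS and OVA. Neither reached the filter, and 0 of the 2 tested genes of that list were called by limma.

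Among the lysosomal cathepsins, some of which Serpina3g inhibits, 7 of 10 rose with short OVA and none fell (median log2 difference 0.62), and 4 of 10 rose in the long protocol. Ctsk was 14.1 ± 1.42 FPKM with short PBS and 146 ± 54.0 FPKM with short OVA (3.24 ± 0.35, adjusted p = 1.75e-06), and 17.6 ± 2.68 and 103 ± 38.2 FPKM in the long protocol (2.44 ± 0.35, adjusted p = 0.000547). Ctss rose by 2.17 ± 0.20, Ctsz by 1.60 ± 0.17 and Ctsb by 1.51 ± 0.14 in the short protocol. Of 12 tested complement and contact genes 4 rose and 1 fell, with Cfi, the complement factor I protease, at 2.06 ± 0.28 and the kinin receptors Bdkrb1 and Bdkrb2 at 1.81 ± 0.28 and -0.89 ± 0.30. Of 7 tested epithelial membrane proteases Tmprss4 alone was called (1.41 ± 0.26), and the channel-activating Prss8 was 101 and 87.8 FPKM (-0.21 ± 0.16, adjusted p = 0.385).

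Inhibitors of other families gave 7 genes higher and 3 lower among 22 tested with short OVA (45.5% called, against 24.2% of all tested genes). Timp1, an inhibitor of matrix metalloproteinases, was 0.676 ± 0.156 FPKM with PBS and 37.3 ± 6.34 FPKM with OVA (5 ± 0.38, adjusted p = 1.96e-08), while Timp3 fell by 0.96 ± 0.19 and Reck fell by 1.09 ± 0.16. Tfpi2 (2.44 ± 0.26), the leukocystatin Cst7 (2.04 ± 0.40), Wfdc17 (3.43 ± 0.54) and Slpi (1.89 ± 0.33), a mucosal elastase inhibitor, rose. In the long protocol Slpi was at 6.49 ± 1.53 FPKM with PBS and 92.7 ± 53.1 FPKM with OVA (3.60 ± 0.33, adjusted p = 6.77e-06). The change of its effect between protocols was 1.71 ± 0.46 (adjusted p = 0.067). Itih4 had a difference of 0.06 ± 0.20 in the short (adjusted p = 0.86) and 1.47 ± 0.20 in the long protocol (0.000269), and the change of effect was 1.41 ± 0.28 (0.00998).

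Of 8 receptors and matrix partners that bind or clear serpin complexes, Sdc4 rose by 0.57 ± 0.11, and Vldlr fell by 1.25 ± 0.24 and Lrp1 by 0.73 ± 0.25 with short OVA. Of 15 tested collagen-folding partners of Serpinh1, 4 rose and 3 fell (46.7% called, against 24.2% of all tested genes, with a median log2 difference of 0.05): Col3a1 (2.06 ± 0.29), Col1a1 (1.19 ± 0.34), Ppib (1 ± 0.15) and P4hb (0.52 ± 0.09) rose, and Plod2, P4ha1 and P4ha2 fell by 0.76 ± 0.18, 0.73 ± 0.22 and 0.69 ± 0.18. In the long protocol none of either list was called.

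**Figure D5:**
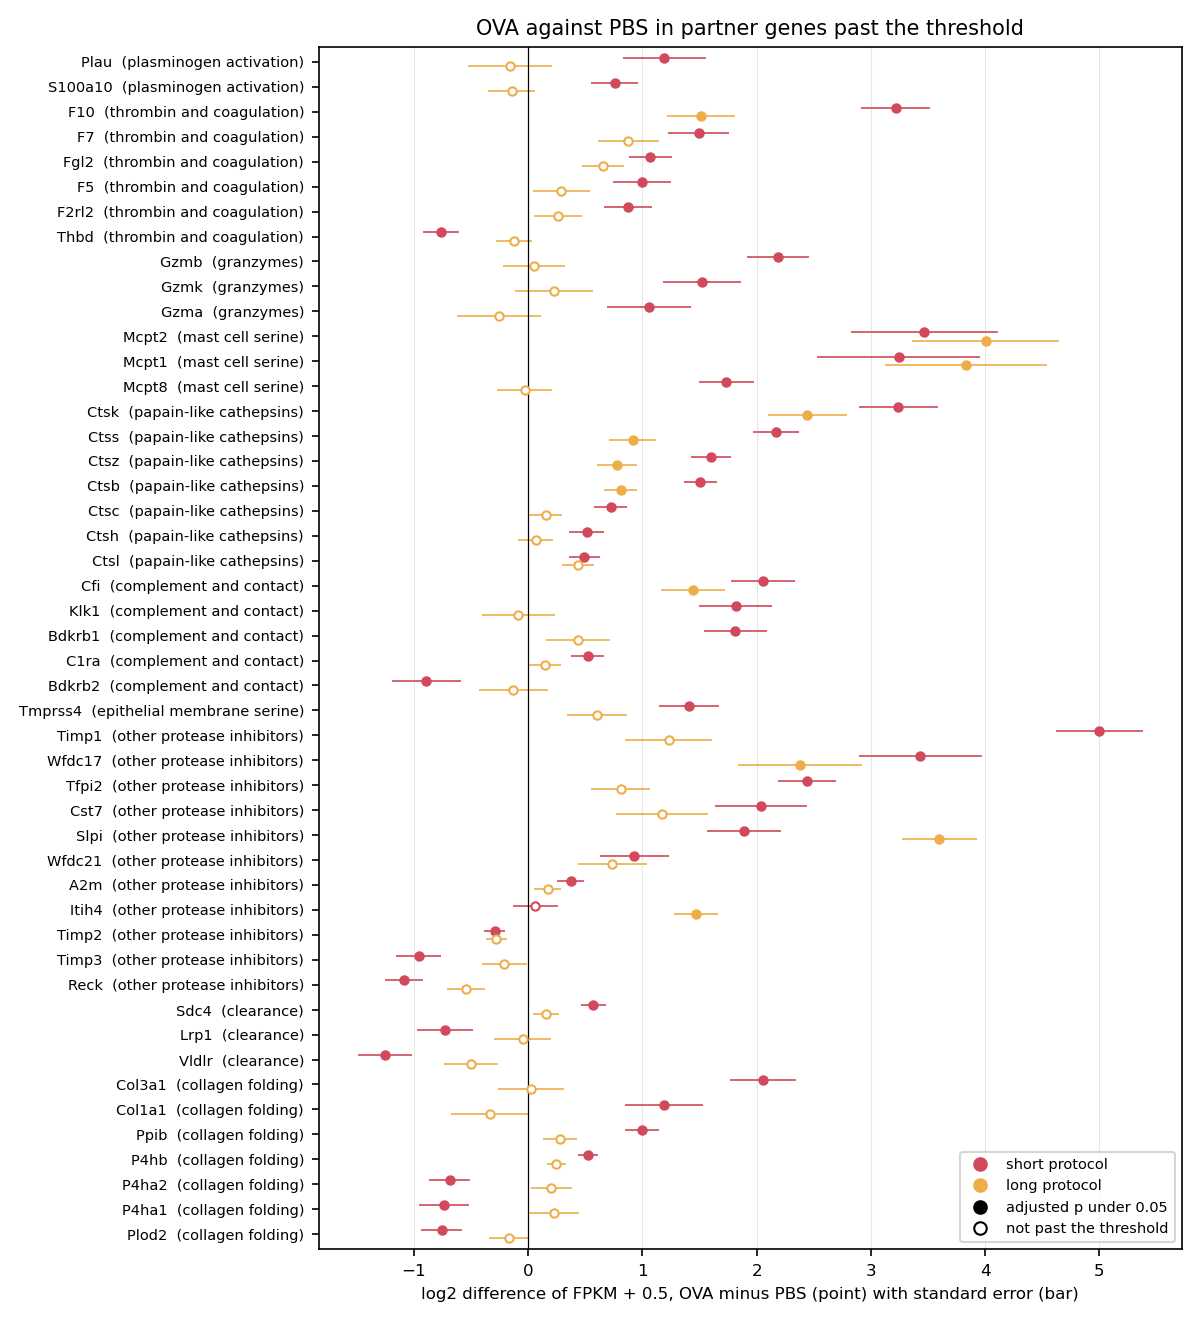
Log2 difference of FPKM + 0.5 between OVA and PBS lungs (horizontal axis) with its standard error, for genes of the protease, inhibitor and partner lists that passed an adjusted p of 0.05 in either protocol (vertical axis, list in parentheses). Timp1 has the largest short-protocol difference at 5, and Slpi, Mcpt1, Mcpt2 and Itih4 have larger values in the long than in the short protocol. Of these, only Itih4 had a called change of effect.

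Markers of several cell types moved with the short OVA group, and in whole-lung RNA more cells of a type and more RNA per cell cannot be told apart. The calls below stand against 24.2% of all tested genes called between short OVA and PBS, 12.4% as higher and 11.7% as lower. Smooth muscle and platelet markers (25% called in each list) were near that share. Neutrophil, mesothelial and mast cell markers (20% in each) were near it too. The 4 alveolar macrophage markers summed to 209 to 250 FPKM in short PBS, 4730 to 7070 FPKM in short OVA, 185 to 897 FPKM in long PBS and 1730 to 2590 FPKM in long OVA libraries. In the short protocol 2 of 4 were called higher, Chil3 (4.88 ± 0.36) and Ear2. Not called were Siglecf, which is also in the eosinophil list, and Marco, which was at 0.951 and 0.251 FPKM. The 4 eosinophil markers summed to 6.22 to 7.52 FPKM with short PBS and 10.6 to 22.7 FPKM with short OVA, 3 of 4 called higher, and the 5 cytotoxic lymphocyte markers to 37.1 to 61.5 and 93.4 to 125 FPKM, 2 of 5 called higher. The 4 endothelial markers, 3 of 4 called lower, summed to 1260 to 1550 FPKM with short PBS and 898 to 1120 FPKM with short OVA. The sum of 5 alveolar type 2 markers was 12300 to 14300 FPKM with short PBS and 17300 to 18900 FPKM with short OVA (2 called higher and 2 lower), and that of 4 smooth muscle markers 125 to 167 and 250 to 329 FPKM (1 higher). The sum of 5 mast cell markers was 95.2 to 124 and 57.3 to 65.3 FPKM (1 lower), although their median log2 difference was 0.55, so most of them did not share the fall. Called lower were also 2 of 4 alveolar type 1 markers (1120 to 1540 and 952 to 1200 FPKM), 2 of 3 club cell markers (41800 to 49900 and 34500 to 46600 FPKM) and 1 of 5 mesothelial markers, while 2 of 4 fibroblast markers were called higher and 1 lower, and 1 of 5 neutrophil and 1 of 4 platelet markers higher. None of these markers was at 0 in all libraries of a group. A sum is weighted towards the most abundant genes of its list. The median log2 difference with short OVA was 1 for alveolar macrophage, 2.37 for eosinophil and 0.89 for cytotoxic lymphocyte markers. For endothelial, alveolar type 2 and smooth muscle markers it was -0.96, 0.37 and 0.15. The part of these cell types in the serpin differences was not tested.

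In the short OVA libraries the deviation of a gene from its mean went with its transcript length, with rank correlations of -0.48 to -0.40 across genes, against -0.03 to 0.28 in short PBS libraries. The strongest such trend was in a library without OVA, MCh short 4 (-0.64), while the other short MCh libraries were at 0 to 0.24 and the long libraries at 0.05 to 0.46. When each library's trend with length was removed, 12 of 39 members were called between short OVA and PBS, the 13 above without Serpinb1a (adjusted p = 0.0555).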

How the data were processed

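RNA of 22 mouse lung samples in 6 groups was sequenced from stranded total RNA libraries, per the labels' protocols. The authors deposited FPKM per gene (20938 genes) and per transcript (36844 transcripts), 1 column per library. Trim Galore, STAR and DESeq2 and the build mm10 are named in the submitters' processing notes, without versions, and neither the program that gave FPKM, nor its annotation or use of strand, is stated. The deposited files used here hold no read counts, so a count test was not used.

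Members are the genes whose symbol starts with Serpin, 63 in all; 1 of them is not reported here and enters no count or sum of members. The members, the partner lists and the marker lists were chosen with earlier results of these data known. Described individually are all members called in any comparison, a set of key members, and from each list up to 4 genes with the smallest p in short OVA against PBS plus known serpin targets. The other genes that are plotted are not discussed.

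Tests used log2(FPKM + 0.5), a scale on which low genes change less than their ratio. Genes at 0.1 FPKM or more in at least 3 libraries were kept (15682). All libraries entered 1 linear model with 6 group means in limma 3.58.1 (R 4.3.3; lmFit, contrasts.fit, eBayes with trend), with 8 contrasts, and p-values were adjusted by Benjamini-Hochberg over all tested genes, with a threshold of 0.05. Errors are SD of FPKM or SE of log2 differences. The procedure was tested on simulated data. No 2 libraries held identical values. Fragment numbers were estimated from the steps of low transcript values, and cover counting error only. Promoters came from RefSeq (GRCm38.p6) and coding sequences and positions from GENCODE M21 (mm10), with reading frames taken as the longest open frame. Alternatives were other pseudocounts, filters, scalings, weights and library sets, transcript sums, a replicate block and removal of the trend with transcript length.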

Additional observations from a re-analysis of the deposited data

Results flagged for a closer look

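In groups of 4 libraries, 94 pairs of member and group were checked for a library whose gap to its nearest neighbour was large against the group's range, and 12 were found, where chance gives about 5%. In MCh short 1, a library with many genes at 0, Serpina9 was at 2.53 FPKM (at most 0.0448 in the other short MCh libraries), Serpinb11 at 2.51 FPKM (at most 0.0273) and Serpinb12 at 4.32 FPKM (at most 0.197). Serpinb6a was high in MCh short 4, at 223 FPKM (140 to 146 in the others), and in MCh long a, at 205 FPKM (136 to 142). Serpind1 was low in MCh short 2, at 0.965 FPKM (1.24 to 1.30 in the others).

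Among OVA libraries, Serpina3c was low in OVA short 3, at 10.3 FPKM (15 to 15.8 in the others), and in OVA long b, at 2.91 FPKM (4.72 to 4.92). Serpina3n was low in OVA long b too, at 64.9 FPKM (97.7 to 105). In OVA long d Serpina3f was high, at 23.8 FPKM (11.2 to 12.5), and Serpina1a low, at 1.66 FPKM (2.80 to 3.03). Serpini1 was high in OVA long a, at 5.68 FPKM (2.27 to 2.61).

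The OVA effect differed between the protocols, by the tested difference of effects (long minus short, log2 scale), for Serpinb2 (-3.60), Serpina3n (-2.55), Serpina3g (-2.20) and Serpina11 (-1.40).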

How the results depend on the processing

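Of the 13 members called between short OVA and PBS, Serpinb1a and Serpinb9 lost the call as given with their values, Serpinb6b lost it under the replicate block alone (adjusted p = 0.107), and the other members kept it in every alternative that could be run. The count stayed between 11 and 13 when each library was left out, and was 12 to 13 under other pseudocounts, filters, scalings, weights and library sets. The number of called members varied more in the other comparisons. Between long OVA and PBS (2) it was 5 after quantile normalization, 8 with array weights, 7 with the groups fitted alone, 7 without the 3 libraries with most genes at 0, 5 with the length trend removed, and 1 to 6 when each library was left out. For the change of the OVA effect between protocols (4) it was 11 with array weights, 13 with the groups alone, 9 without the 3 libraries, and 4 to 7 when each library was left out. Between long OVA and MCh (8) it was 3 with the groups alone and 5 to 11 when each library was left out, and between short OVA and MCh (15) it was 17 with array weights, 12 with the groups alone, 12 with the replicate block and 13 to 15 when each library was left out. Between short MCh and PBS (0) it was 1 with array weights and 0 when each library was left out, and between long MCh and PBS (0) it was 0 to 1. Between long and short PBS (0) it was 2 with array weights, 1 without the 3 libraries and 0 when each library was left out. Libraries outside a comparison enter its test only through the estimate of spread that all groups share and through the set of tested genes. The cause of the other changes was not tested. Over all tested genes, long OVA against MCh gave 745 higher and 206 lower, but 621 and 352 with median-of-ratios scaling, 452 and 447 after quantile normalization, and 660 and 700 with the length trend removed. Long OVA against PBS gave 161 higher and 24 lower, 182 and 42 after quantile normalization, and 217 and 34 with the length trend removed. The change of effect gave 72 and 223, 109 and 267, and 81 and 240, in the same order. For array weights, groups fitted alone and libraries left out, these calls are not given. The counts of members there cannot be set against all tested genes. The direction turned for Serpina1d between long OVA and MCh, from 0.33 to -0.29 after quantile normalization and -0.06 with array weights, and for Serpinf1, from -0.22 to between -0.71 (without MCh long a) and 0.01 (without MCh long d). Neither was called in the analysis as reported. Serpinf1 was called lower with array weights (-0.54 ± 0.16, adjusted p = 0.0252 by limma) and without MCh long a (0.0131). It was also called lower without the 3 libraries with most genes at 0 (-0.66 ± 0.16, 0.0355). Serpina1d was called higher without MCh long b (0.50 ± 0.16, 0.0488).

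With the replicate number as a block, in the short protocol, 10 members were called between OVA and PBS, 12 between OVA and MCh and 0 between MCh and PBS, against 12, 14 and 0 in the same libraries without it. Over all tested genes the block gave 2267 against 3636, 1981 against 2325 and 1 against 0. Only 1 of 10 pairs of libraries with the same number had a correlation of deviations over 0.1 (range -0.27 to 0.36). Deviations from the mean of a small group depend on each other, so these correlations cannot show whether equal numbers mark a shared batch. No paired analysis was possible for the long protocol because the MCh and OVA columns do not carry their sample's number.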
